A study of Mus musculus with 6 samples.

Results

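The genes described here are 10 members of the BCL2 family, chosen by name: Bcl2, Bcl2l1, Bcl2l11, Mcl1, Bax, Bak1, Bid, Bbc3, Pmaip1 and Bcl2a1b. All 10 were found among the 55840 genes of the deposited table, and all 10 had enough counts to be tested. The RNA was taken from Tregs of mouse spleen and lymph nodes, the T lymphocytes that restrain immune responses and depend on the transcription factor Foxp3, with 3 libraries labelled WT and 3 labelled Exon2KO, the Foxp3∆2 genotype of the series title. No other allele, treatment, age or sex is given in the labels, which number the libraries of each genotype as biological replicates without saying whether each is 1 mouse or a pool. Libraries are called by genotype and by the number in their column name (2, 6 or 20), and libraries of the same number are treated as a pair in the fit called the replicate block.

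Proteins of the BCL2 family decide whether the outer mitochondrial membrane is opened, the committing step of the intrinsic pathway of apoptosis. Bax and Bak1 form the pore, the survival proteins (BCL2, BCL-XL, MCL1 and A1) hold them in check, and the BH3-only proteins (BIM, BID, PUMA and NOXA) bind the survival proteins or switch on the pore formers. Treg numbers are known to rest on this balance: IL-2 signalling sustains MCL1, and BIM is a main driver of Treg death when IL-2 is short.

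Library totals ran from 17998216 to 21003496 counts. Foxp3, the edited gene, had 10934 to 15997 counts in WT and 13336 to 16437 in Exon2KO libraries, and counts per gene cannot show its second exon, so the genotype could not be checked from them. All 9 Treg and T cell markers were present in every library. They summed to 4104, 3984 and 4402 CPM in WT 2, 6 and 20. In Exon2KO 2, 6 and 20 they summed to 3784, 3615 and 4032 CPM, lower within every pair. Ctla4 (unblocked log2 fold change -0.85), Ikzf2 (-0.66) and Il2ra (-0.52) were called lower in both fits, and Tnfrsf18 (-0.72) only with the block. Foxp3, Cd4, Cd3d, Cd3e and Cd3g were called in neither. The part of this in the levels of the family was not tested. The 4 stromal markers summed to 164 to 190 CPM in WT and 187 to 225 CPM in Exon2KO, nearly all of it Pecam1, while Col1a1 had 6 to 63 counts per library, Pdgfra 1 count in all and Col3a1 none. Over all 14919 genes tested with edgeR's quasi-likelihood fit, 2.33% passed an adjusted p of 0.05 without the replicate block (0.757% higher, 1.58% lower in Exon2KO) and 9.72% passed with it (3.93% higher, 5.79% lower).

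Genes of the family were called in both directions. Of the 10 genes, 5 had higher and 5 lower fitted values in Exon2KO, with a median log2 difference of -0.035, beside 0.0084 over all genes tested. Without the block 2 genes were called, both lower: Bcl2l1, which encodes BCL-XL, and Bid. With the block 6 were called: Bcl2 and Bcl2l11 rose, and Bcl2l1, Bid, Pmaip1 and Bcl2a1b fell. So the survival and the BH3-only class each held called genes of opposite direction. Among the survival genes Bcl2 rose while Bcl2l1 fell, and among the BH3-only genes Bcl2l11 rose while Bid fell. Neither pore former was called. When both libraries numbered 20 were left out, Bcl2, Bcl2l1, Bcl2l11 and Bid were the 4 genes called, with the block and without it. Of all genes tested in those fits, 6.03% and 2.43% were called, and the blocked one was added after seeing the data. Without both libraries numbered 2 the unblocked fit called 0 members, beside 2 of 15111 genes tested. Without both numbered 6 it also called 0 members, beside 46 of 15214. The authors' deposited table gives an adjusted p under 0.05 to 4 members, beside 2.55% of its genes with a value, at 0.0105 for Bcl2, 1.85e-05 for Bcl2l1, 0.00966 for Bcl2l11 and 0.000349 for Bid. WT and Exon2KO libraries did not overlap for 5 of the 10 genes, beside 17.7% of all genes tested. In bulk RNA, a change in transcript per cell and a change in the share of cells that carry the transcript cannot be told apart.

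**Figure D1:**
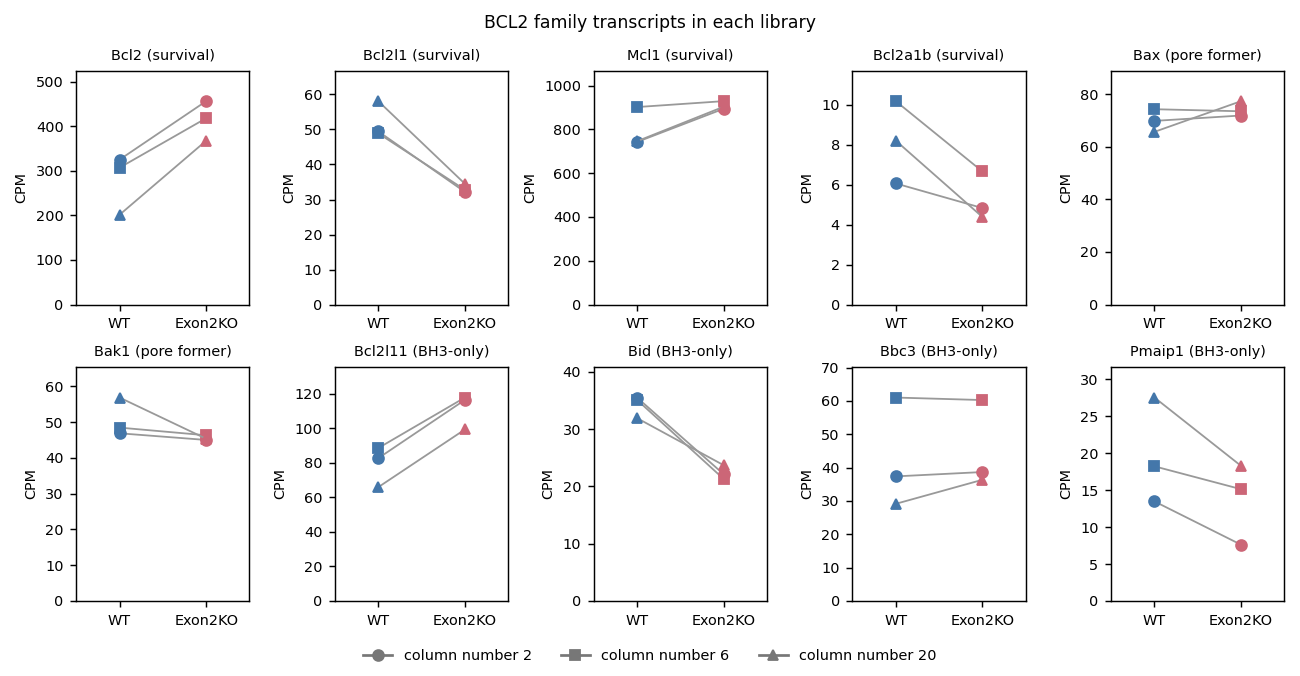
Level of each gene in CPM (linear axis from 0) in the 3 WT (blue) and 3 Exon2KO (red) libraries; grey lines join libraries of the same column number. Bcl2 and Bcl2l11 lie higher in every Exon2KO library than in any WT library, Bcl2l1, Bid and Bak1 lie lower, and Bbc3 stands near 60 CPM in both libraries numbered 6.

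Bcl2 (ENSMUSG00000057329, chromosome 1, 106538178 to 106714274, minus strand, mm10), the founding survival gene of the family, measured 325 CPM in WT 2, 307 in WT 6 and 201 in WT 20. In Exon2KO 2, 6 and 20 it measured 456, 418 and 367 CPM. Every Exon2KO library was above every WT library, and WT 20 was far below the other WT libraries. The group means were 278 ± 66.8 and 414 ± 44.5 CPM (SD, n = 3 each), 1.49-fold higher in Exon2KO. The log2 fold change was 0.60 with the block (SE 0.080, edgeR adjusted p = 0.000282) and 0.58 without it (SE 0.18, edgeR adjusted p = 0.213). DESeq2, also without the block, called it (adjusted p = 0.0119). Within the pairs the log2 difference was 0.49, 0.45 and 0.87 for numbers 2, 6 and 20. Without both libraries numbered 20 the log2 fold change was 0.47, called with the block (adjusted p = 0.00177) and without (0.0286). In the unblocked fit it was 0.63 without both libraries numbered 2 and 0.64 without both numbered 6. Neither was called (edgeR adjusted p = 0.605 and 0.553).

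Bcl2l1 (ENSMUSG00000007659, chromosome 2, 152780668 to 152831728, minus strand) encodes BCL-XL, a survival protein that T cells induce on activation. It measured 49.5, 48.9 and 58.1 CPM in WT 2, 6 and 20 and 32.2, 32.8 and 34.5 CPM in Exon2KO 2, 6 and 20. Both groups were tight, and the highest Exon2KO library was well below the lowest WT library. From 52.2 ± 5.15 to 33.1 ± 1.20 CPM (SD, n = 3 each), its level fell by 36.5%, or -0.65 on the log2 scale (edgeR SE 0.097, adjusted p = 0.00915). The pairs gave -0.62, -0.58 and -0.75. In the 6 fits that each left out 1 library the call was lost only without Exon2KO 2 (edgeR adjusted p = 0.0657), where the log2 fold change was -0.64. In the unblocked fit the call was also lost without both libraries numbered 2 (-0.67, edgeR adjusted p = 0.294) or both numbered 6 (-0.70, 0.0876).

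Mcl1 (ENSMUSG00000038612, chromosome 3, 95658788 to 95663176), whose short-lived protein Tregs need to survive, measured 743, 902 and 746 CPM in WT 2, 6 and 20 and 894, 929 and 903 CPM in Exon2KO 2, 6 and 20. WT 6 lay within the Exon2KO range. A log2 fold change of 0.19 (95% interval -0.018 to 0.40, edgeR adjusted p = 0.482) was fitted, and 0.20 with the block (0.046 to 0.35, edgeR adjusted p = 0.101). Neither fit called Mcl1, and without WT 6 its unblocked log2 fold change was 0.29. None of the 7 genes listed for the turnover of MCL1 protein, among them the ubiquitin ligase gene Huwe1 and the deubiquitinase gene Usp9x, was called in either fit.

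Bcl2a1b (ENSMUSG00000089929, chromosome 9, 89199209 to 89207827, plus strand) is a copy of the A1 survival gene, an NF-kB target, and had the fewest counts of the 10. WT 2, 6 and 20 held 113, 185 and 175 counts of it, and Exon2KO 2, 6 and 20 held 87, 130 and 78. Those are 6.07, 10.2 and 8.21 CPM against 4.83, 6.67 and 4.39 CPM. The groups overlapped through WT 2 and Exon2KO 6, while each pair was lower in Exon2KO. The log2 fold change was -0.62 without the block (SE 0.25, edgeR adjusted p = 0.341) and -0.62 with it (SE 0.18, edgeR adjusted p = 0.0414). Without both libraries numbered 20 the blocked fit no longer called it (-0.48, adjusted p = 0.216).

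The mouse genome holds several near-identical A1 genes, and their opening coding bases are shown because they bear on how far the reads of Bcl2a1b can be assigned. In the GENCODE M21 transcripts, Bcl2a1d differs from Bcl2a1b at 7 of 817 aligned bases (99.1% identity) and Bcl2a1a at 15 (98.2%), with up to 217 bases in a row without a difference in both comparisons. The lines below give the first 60 coding bases, all in exon 1 (GRCm38, 5′ to 3′ along the gene); capitals mark the 6 positions at which the 3 copies are not all alike.
Bcl2a1b, chr9:89199360-89199419, plus strand: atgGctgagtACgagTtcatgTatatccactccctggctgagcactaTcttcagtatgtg
Bcl2a1d, chr9:88731660-88731719, minus strand: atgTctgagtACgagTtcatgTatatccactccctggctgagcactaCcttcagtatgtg
Bcl2a1a, chr9:88957051-88957110, plus strand: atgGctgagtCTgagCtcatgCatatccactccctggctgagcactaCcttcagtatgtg
Bcl2a1d measured 10.3, 16.6 and 14.7 CPM in WT 2, 6 and 20 and 9.56, 15.7 and 10.5 CPM in Exon2KO 2, 6 and 20. Its groups overlapped and it was not called with the block (-0.22, edgeR adjusted p = 0.379) or without it (-0.21, edgeR adjusted p = 0.842). Bcl2a1a had 1 to 6 counts per library and Bcl2a1c had none. When the copies were summed into 1 row, the log2 fold change was -0.36 with the block (SE 0.11, edgeR adjusted p = 0.0582), so the call of Bcl2a1b was lost and its size fell. How reads that match several copies were assigned is not given in the sources used here, so the fall of Bcl2a1b is uncertain. A1 transcripts are also abundant in myeloid and B cells. The 5 myeloid markers, all detected, summed to 21.3 to 70.2 CPM in WT and 17.4 to 52.7 CPM in Exon2KO, highest in both libraries numbered 20. Like Bcl2a1b, the myeloid sum was lower in Exon2KO within every pair. The 5 B cell markers, also all detected, summed to 31.1 to 31.9 CPM in WT and 24.8 to 27.6 CPM in Exon2KO, so this sum was lower in every Exon2KO library; Cd79b held most of it. Their part in the level of Bcl2a1b was not tested.

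Both pore formers stayed below the threshold. Bax (ENSMUSG00000003873, chromosome 7, 45461697 to 45466898) measured 69.8, 74.2 and 65.6 CPM in WT 2, 6 and 20 and 71.9, 73.5 and 77.3 CPM in Exon2KO 2, 6 and 20. The 95% interval of its log2 fold change was -0.089 to 0.26, and -0.060 to 0.23 with the block. Bak1 (ENSMUSG00000057789, chromosome 17, 27019810 to 27029009) measured 46.9, 48.5 and 56.9 CPM in WT 2, 6 and 20 and 45.0, 46.3 and 45.4 CPM in Exon2KO 2, 6 and 20. Its groups did not overlap, by a narrow margin except for WT 20, and the log2 fold change of -0.16 (95% interval -0.37 to 0.054) was not called (edgeR adjusted p = 0.61), nor was it with the block (0.289). Without WT 20 the log2 fold change was -0.066 for Bak1 and 0.042 for Bax.

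Among the BH3-only genes, Bcl2l11 (ENSMUSG00000027381, chromosome 2, 128126038 to 128162547, plus strand) encodes BIM, which binds all survival proteins. It measured 82.6, 88.5 and 65.8 CPM in WT 2, 6 and 20 and 116, 118 and 99.2 CPM in Exon2KO 2, 6 and 20. The groups did not overlap, and the library numbered 20 was the lowest of each genotype. Its level was 79.0 ± 11.7 CPM in WT and 111 ± 10.3 CPM in Exon2KO (SD, n = 3 each), 1.41-fold higher. The log2 fold change was 0.50 with the block (SE 0.063, edgeR adjusted p = 8.52e-05) and 0.49 without it (SE 0.12, edgeR adjusted p = 0.0759). DESeq2, also without the block, called it (adjusted p = 0.00744). The pairs gave 0.49, 0.41 and 0.59. Without both libraries numbered 20 the log2 fold change was 0.45, called with the block (adjusted p = 0.00171) and without (0.0297). In the unblocked fit it was 0.49 without both libraries numbered 2 and 0.53 without both numbered 6. Neither was called (edgeR adjusted p = 0.607 and 0.234).

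Bid (ENSMUSG00000004446, chromosome 6, 120891930 to 120916853, minus strand) encodes the BH3-only protein that caspase-8 cleaves, and so links death receptors to mitochondria. It measured 35.5, 35.1 and 31.9 CPM in WT 2, 6 and 20 and 22.1, 21.3 and 23.7 CPM in Exon2KO 2, 6 and 20. The groups were clearly apart, with means of 34.2 ± 1.96 and 22.4 ± 1.22 CPM (SD, n = 3 each). Its level fell by 34.5%, or -0.61 on the log2 scale (edgeR SE 0.10, adjusted p = 0.0162; with the block 0.000519). The pairs gave -0.68, -0.72 and -0.43. When 1 library was left out, the edgeR adjusted p passed 0.05 without WT 2 (0.0879), WT 6 (0.0686), Exon2KO 2 (0.0961) or Exon2KO 6 (0.0536), with log2 fold changes from -0.61 to -0.59. Over 913 bases Bid overlaps Bcl2l13 on the opposite strand, which had 7010 counts over all libraries beside 3212 for Bid and a log2 fold change of 0.037. Over 2094 bases it overlaps Gm44260 on its own strand, which had 224 counts and a log2 fold change of -0.91 (edgeR adjusted p = 0.49). Without a stated use of strand, reads in the stretch shared with Bcl2l13 cannot be told apart.

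Bbc3 (ENSMUSG00000002083, chromosome 7, 16308393 to 16318205) encodes PUMA, a target of p53 and of FOXO factors. It measured 37.4, 61.0 and 29.1 CPM in WT 2, 6 and 20 and 38.7, 60.3 and 36.3 CPM in Exon2KO 2, 6 and 20. The spread followed the column number and not the genotype: both libraries numbered 6 were the highest. The log2 fold change was 0.088 (95% interval -0.75 to 0.92), and with the block 0.11 (-0.067 to 0.29, edgeR adjusted p = 0.502). Pmaip1 (ENSMUSG00000024521, chromosome 18, 66458533 to 66465565) encodes NOXA, which chiefly binds MCL1 and A1. It measured 13.5, 18.2 and 27.5 CPM in WT 2, 6 and 20 and 7.61, 15.1 and 18.3 CPM in Exon2KO 2, 6 and 20. The groups overlapped, but the order 2, 6, 20 was the same in both and each pair was lower in Exon2KO. The log2 fold change was -0.53 without the block (SE 0.38, edgeR adjusted p = 0.724) and -0.55 with it (SE 0.12, edgeR adjusted p = 0.00947). Without both libraries numbered 20 the blocked fit no longer called it (-0.52, adjusted p = 0.0905). Without the block, leaving out 1 library moved the log2 fold change of Pmaip1 to -0.21 (without WT 20), -0.25 (without Exon2KO 2) or -0.80 (without Exon2KO 20).

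**Figure D2:**
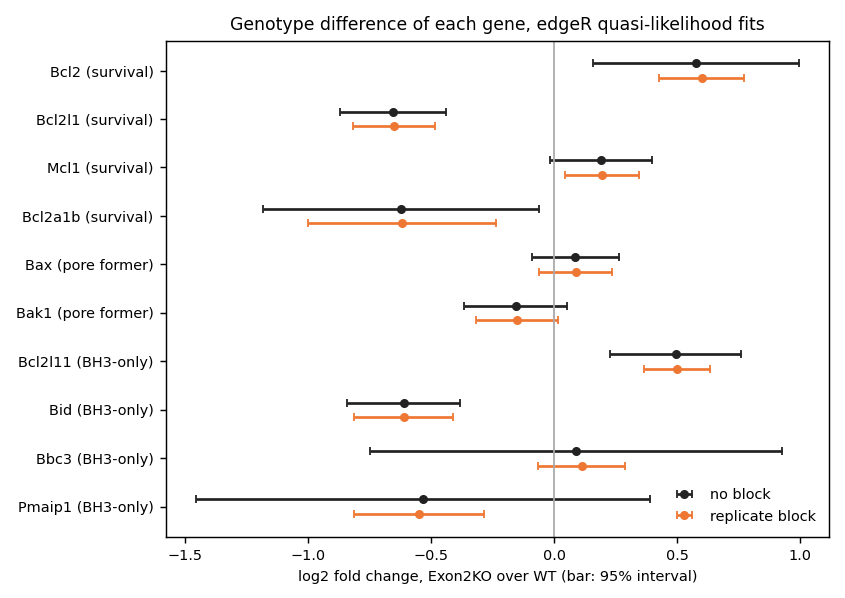
Fitted log2 fold change of Exon2KO over WT (points) with 95% intervals (bars) from edgeR without the block (black) and with the replicate block (orange). Intervals narrow most under the block for Bbc3, Pmaip1 and Bcl2, while the point estimates stay close.

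The blocked fit also tested differences between the column numbers, and 4 members passed: Bbc3 (edgeR adjusted p = 5.4e-05), Pmaip1 (0.000509), Bcl2 (0.0118) and Bcl2l11 (0.0198), beside 10.4% of all genes tested. Relative to the mean of its genotype, Bbc3 averaged 0.52 higher on the log2 scale in the libraries numbered 6 and -0.37 in those numbered 20. Pmaip1 averaged -0.62 in number 2 and 0.52 in number 20. Bcl2 and Bcl2l11 were both low in number 20, at -0.30 and -0.20. Libraries numbered 20 also stood apart in other lists. The 10 immediate early genes (Egr2 at 0 in all libraries), which handling can induce, summed to 6207 CPM in WT 20 and 6959 CPM in Exon2KO 20, against 3248 to 3707 CPM in the other 4 libraries. The 15 proliferation genes summed to 1486 and 1132 CPM in WT 20 and Exon2KO 20, against 710 to 873 CPM in the others. This sum was also lower in Exon2KO within every pair, with 14 of the 15 genes lower (median -0.36) and 5 called with the block, none without it. The 12 interferon genes summed to 1341 and 1550 CPM in WT 20 and Exon2KO 20, against 762 to 950 CPM in the others. That sum was higher in Exon2KO within every pair, with 11 of the 12 genes higher (median 0.24) and 7 called with the block, none without it. The part of these differences in the levels of the family was not tested, and no label says what the column numbers stand for.

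Levels of different genes were compared per length, as CPM per kilobase of the deposited gene length. Mcl1 led in both genotypes, at 233 ± 26.7 in WT and 266 ± 5.27 CPM per kilobase in Exon2KO (SD, n = 3 each). It made up 81.8% ± 1.47 and 81.9% ± 1.33 of the summed level of the 4 survival genes. In WT, Mcl1 was followed by Bax (44.4 ± 2.73), Bcl2 (30.3 ± 7.29), Bak1 (21.1 ± 2.23) and Bbc3 (20.02 ± 7.79 CPM per kilobase). Lower still were Bcl2l1 (11.4 ± 1.12), Bcl2a1b (9.98 ± 2.52), Bcl2l11 (9.83 ± 1.46), Bid (9.62 ± 0.553) and Pmaip1 (7.23 ± 2.62 CPM per kilobase). Ranges of neighbours in this order overlapped except between Mcl1 and Bax, Bax and Bcl2, and Bbc3 and Bcl2l1. In Exon2KO, the range of Bcl2 (45.2 ± 4.86) overlapped that of Bax (47.1 ± 1.78 CPM per kilobase), and that of Bbc3 (21.2 ± 6.21) overlapped that of Bak1 (18.9 ± 0.282 CPM per kilobase). Bcl2l11, at 13.8 ± 1.28 CPM per kilobase, stood above Bcl2l1 (7.23 ± 0.262), Bcl2a1b (6.48 ± 1.48), Bid (6.30 ± 0.343) and Pmaip1 (5.01 ± 2.01) in every Exon2KO library.

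**Figure D3:**
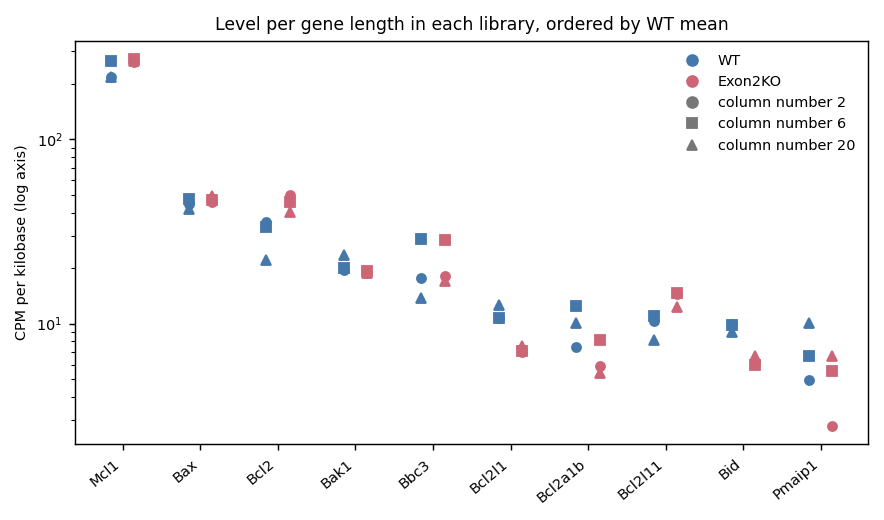
CPM per kilobase of each gene (log axis) in every library, WT in blue and Exon2KO in red, with the marker shape giving the column number and genes ordered by their WT mean. Mcl1 lies highest in all libraries; Bcl2 moves up to the level of Bax in Exon2KO, and Bcl2l1 and Bid move down.

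Ratios of CPM per kilobase within a library show the shift inside each class, and are given as a description without a test, since they are built from the genes above. Bcl2 stood at 3.29, 3.14 and 1.74 times the level of Bcl2l1 in WT 2, 6 and 20, and at 7.10, 6.38 and 5.33 times in Exon2KO 2, 6 and 20. The share of Bcl2l1 in the summed survival level was 4.04% ± 0.747 in WT and 2.23% ± 0.124 in Exon2KO (SD, n = 3 each), without overlap. Bcl2l11 stood at 1.03, 1.11 and 0.912 times the level of Bid in WT 2, 6 and 20, and at 2.33, 2.44 and 1.85 times in Exon2KO. Thus the transcript of BIM and that of BID were about level in WT and no longer so in Exon2KO. Bax stood at 2.27, 2.34 and 1.76 times the level of Bak1 in WT 2, 6 and 20 (mean 2.13 ± 0.316). In Exon2KO 2, 6 and 20 it stood at 2.44, 2.42 and 2.60 times (mean 2.49 ± 0.101). Every Exon2KO library was higher, by a narrow margin except for WT 20, and neither gene was called in either fit. By contrast, the ratio of Bcl2 to Bcl2l11 was 3.06 ± 0.384 in WT and 3.27 ± 0.163 in Exon2KO, with overlapping ranges. The summed level of the BH3-only genes was 46.7 ± 8.37 in WT and 46.4 ± 7.12 CPM per kilobase in Exon2KO. For the pore formers the sum was 65.4 ± 1.74 and 66.0 ± 1.81, and for the survival genes 285 ± 31.2 against 325 ± 7.72 CPM per kilobase. All 3 sums overlapped between the genotypes, but the survival sum was higher in Exon2KO within every pair: 271 against 324 CPM per kilobase for number 2, 321 against 333 for number 6 and 263 against 317 for number 20. The ratio of the survival sum to the BH3-only sum was also higher within every pair, at 6.33 against 7.78, 5.69 against 6.10 and 6.41 against 7.41. Mcl1, called in neither fit, made up 81.8% of the survival sum in WT and 81.9% in Exon2KO. That sum leaves out Bcl2a1d.

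**Figure D4:**
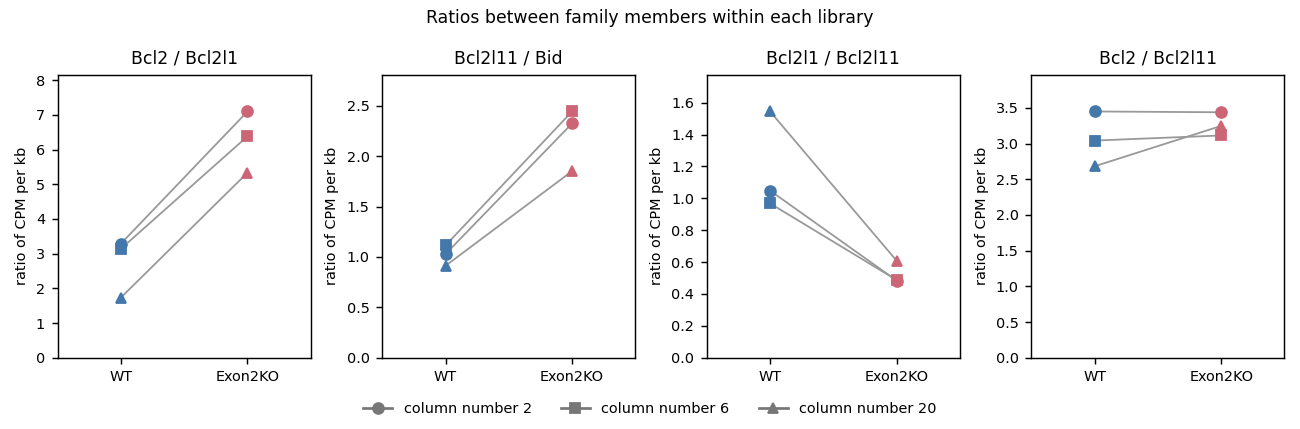
Ratio of the CPM per kilobase of a pair of family genes in each library (linear axis from 0), with grey lines joining libraries of the same column number. Bcl2 over Bcl2l1 runs from 1.74 to 3.29 in WT and from 5.33 to 7.10 in Exon2KO, whereas Bcl2 over Bcl2l11 overlaps.

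The stretches just upstream of the 4 genes called without the libraries numbered 20 are printed, since these genes moved in opposite directions within their classes. Each line holds the 250 bases before the RefSeq transcript start nearest to the deposited gene start (GRCm38.p6, 5′ to 3′ along the gene), and capitals mark a match to a searched motif.
Bcl2, chr1:106714291-106714540, minus strand: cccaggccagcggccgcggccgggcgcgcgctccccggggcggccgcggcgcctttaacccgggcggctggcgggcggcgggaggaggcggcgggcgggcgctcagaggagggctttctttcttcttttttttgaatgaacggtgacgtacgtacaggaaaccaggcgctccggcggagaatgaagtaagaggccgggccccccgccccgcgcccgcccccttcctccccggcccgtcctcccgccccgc
Bcl2l11, chr2:128125788-128126037, plus strand: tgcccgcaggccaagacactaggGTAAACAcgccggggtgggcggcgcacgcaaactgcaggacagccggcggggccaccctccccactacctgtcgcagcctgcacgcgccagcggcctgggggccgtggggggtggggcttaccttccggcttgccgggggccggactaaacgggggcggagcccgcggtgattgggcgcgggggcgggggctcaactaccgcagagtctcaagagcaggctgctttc
Bcl2l1, chr2:152831729-152831978, minus strand: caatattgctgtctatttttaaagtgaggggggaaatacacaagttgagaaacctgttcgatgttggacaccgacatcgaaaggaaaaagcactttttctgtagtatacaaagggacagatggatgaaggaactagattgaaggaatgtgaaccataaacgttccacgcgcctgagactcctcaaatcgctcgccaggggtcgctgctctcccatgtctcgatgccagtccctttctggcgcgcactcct
Bid, chr6:120916825-120917074, minus strand: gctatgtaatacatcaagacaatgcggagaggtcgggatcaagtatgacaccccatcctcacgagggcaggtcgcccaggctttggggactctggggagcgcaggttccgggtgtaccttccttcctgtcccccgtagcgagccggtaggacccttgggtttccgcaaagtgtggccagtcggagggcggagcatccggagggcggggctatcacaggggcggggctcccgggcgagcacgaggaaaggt
Upstream of Bcl2 and Bcl2l11, GC content was 74.8% and 72.0%. It was 47.6% for Bcl2l1 and 63.6% for Bid, beside a median of 52.4% over the 32851 RefSeq windows of this length. Searched on both strands were the forkhead motif TGTTTAC, the STAT motif TTCNNNGAA and an NF-kB motif (GGG, any 2 bases, TTTCC), and no matches overlapped in the windows of the 10 genes. RefSeq windows were found for 9 of the 10 genes, 14 windows in all. Bcl2l11 held a forkhead match, in reverse, from 227 bases before its start, and 1 of the 3 windows of Bbc3 held another from 167 bases before its start; 3.17% of all windows hold this motif. The NF-kB motif was found in 3 of the 14 windows, those of Bbc3, Bcl2l1 and Mcl1 (1 each), beside 1.41% of all windows. For Bcl2l1 it lay in a window other than the one printed. None of the 14 windows held the STAT motif, which 7.02% of all windows hold. A match is a description of letters and not of a bound site.

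Of 14 further BCL2 family genes, 9 were tested, 7 of them with lower and 2 with higher fitted values (median -0.093). None was called without the block. Bcl2l15 alone was called with it, from 2.27 ± 0.258 CPM in WT to 0.836 ± 0.509 CPM in Exon2KO (SD, n = 3 each; log2 fold change -1.53 with the block, edgeR adjusted p = 0.0211). The further BH3-only genes Bad, Bmf and Bik were tested and not called.

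Downstream of the mitochondria, the 16 genes of the apoptosome and caspase list had a median of 0.013, with 8 higher and 8 lower and none called without the block. In the death receptor list of 12 genes the median was 0.010. Tnfsf10, which encodes the death ligand TRAIL, fell from 90.6 ± 10.7 to 56.0 ± 3.90 CPM (log2 fold change -0.69, edgeR adjusted p = 0.00858). Fasl, the Fas ligand gene, rose under the block from 3.48 ± 0.948 to 6.26 ± 2.71 CPM (log2 fold change 0.81, edgeR adjusted p = 0.0266; 0.327 without the block).

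Genes that feed into the family were read from lists in the same fits. The p53 list, which bears on Bbc3, Pmaip1 and Bax, had 12 tested genes with a median of -0.057. None was called without the block and Sesn2, a stress response gene, alone fell with it (-0.53, edgeR adjusted p = 0.00967), while Trp53 itself was not called. The survival cytokine and FOXO list had 16 tested genes and a median of 0.022. Il2ra and Il2rb, receptor chains of IL-2, fell in both fits. Il2ra went from 643 ± 48.5 to 449 ± 60.3 CPM (-0.52 on the log2 scale, edgeR adjusted p = 0.0429). Il2rb went from 1348 ± 116 to 1003 ± 42.8 CPM (-0.43, edgeR adjusted p = 0.0397). With the block, Cish, a feedback gene of STAT5, also fell (-0.34, edgeR adjusted p = 0.00247), and Pim2, a survival kinase gene, rose (0.25, edgeR adjusted p = 0.0440). Also lower with the block were 2 genes named after their values were seen, Il7r (-0.43, edgeR adjusted p = 0.00709) and Pim1 (-0.48, edgeR adjusted p = 0.000355). Foxo1 and Foxo3 were not called in either fit. The NF-kB list, which bears on Bcl2a1b and Bcl2l1, had 10 of 14 genes with lower fitted values and a median of -0.085. None was called without the block, and 3 fell with it: Relb (-0.29, edgeR adjusted p = 0.00539), Traf1 (-0.25, 0.0143) and Nfkb2 (-0.20, 0.0377).

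**Figure D5:**
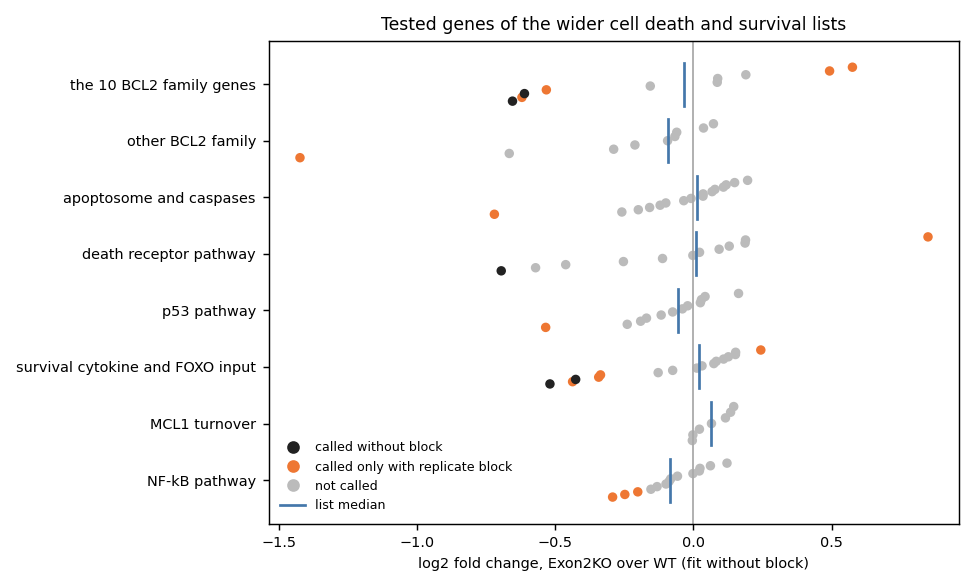
Log2 fold change of Exon2KO over WT without the block for each tested gene (points) of the 10 BCL2 family genes and of 7 wider lists; black points were called without the block, orange only with it, grey in neither, and blue ticks are list medians. List medians lie between -0.093 and 0.066.

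Bcl2l1 had the smallest p of the 10 genes without the block, and the genes most like it were sought among 10072 others with a mean of at least 5 CPM. By Pearson correlation of log2 CPM over the 6 libraries, the nearest were 2310001H17Rik (r = 0.995), Klrg1 (r = 0.994) and Ctla4 (r = 0.994). These 3 genes were all lower in Exon2KO, so the likeness holds the genotype difference as well as the spread among replicates, and it is given with no p.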

How the data were processed

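RNA-seq of 6 Treg libraries, 3 WT and 3 Exon2KO, was analysed from 1 table deposited by the authors. Per the submitters' processing notes the tools were HISAT2 2.0.5, StringTie 1.3.3b, featureCounts 1.5.0-p3 and DESeq2 1.16.1 with the build mm10; roles, strand setting and annotation are not given in the sources used here. Per the file headers, the table holds counts per gene, which were not normalized, and the authors' comparison, with a mean signal (scaled count) per group, a fold change as log2, and p-values raw and adjusted, quoted only where the deposited table is named. A further 6 columns of per-sample values (FPKM) were not used.

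Counts were tested with edgeR 4.0.16 in R 4.3.3 (filterByExpr, TMM, robust quasi-likelihood, two-sided, Benjamini-Hochberg over all 14919 tested genes, called under 0.05). CPM use TMM-scaled totals, and CPM per kilobase divide them by the deposited gene length; the smallest level, 3 counts, was 0.141 to 0.169 CPM and covers counting error only. Columns show a genotype and a number that is in no title. Same-numbered libraries deviated together (correlation of deviations across genes 0.271, 0.369 and 0.494 for numbers 2, 6 and 20), so the number entered as a replicate block in a further fit. P-values without the block rest on the spread between these samples within a genotype. With the block they rest on the spread left after differences between column numbers are removed.

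All 10 genes are named, and of each wider list up to 4 genes called in either fit, those with the smallest p without the block; genes stated as not called were added for their role, and some results of the lists are not reported here. The genes, lists and tests were chosen with earlier results of these data known. Alternatives used limma 3.58.1, DESeq2 1.42.0, other filters and scalings, and left out libraries. Scripts were tested on simulated data.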

Additional observations from a re-analysis of the deposited data

How the results depend on the processing

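The median over all genes stayed between -0.0068 and 0.013 on the log2 scale in all 18 alternatives, of which the block without the libraries numbered 20 was added after seeing the data. Since the numbers in the titles and in the columns differ, the pairing rests on the columns. The 2 members called became 4 with DESeq2, 6 with the replicate block and 4 with the block but without the libraries numbered 20, and numbered 0 to 4 when 1 library or 1 column number was left out. The 0 came without Exon2KO 2, without number 2 and without number 6. The 348 genes called over all genes became 617 without a filter, 667 with DESeq2, 1450 with the replicate block and 900 with the block but without the libraries numbered 20. With libraries left out they numbered 2 (without number 2, which leaves 2 libraries against 2) to 362. For each of these shifts the cause was not tested. Bbc3 turned to -0.12 without WT 20 and -0.19 without Exon2KO 6, in a range of -0.19 to 0.44. The other 9 genes kept their direction in all 18 alternatives: Bcl2 from 0.39 to 0.70, Bcl2l1 from -0.70 to -0.57, Bcl2l11 from 0.38 to 0.58, Bid from -0.70 to -0.56, Pmaip1 from -0.80 to -0.21, Bcl2a1b from -0.83 to -0.35, Mcl1 from 0.14 to 0.29, Bax from 0.012 to 0.13 and Bak1 from -0.21 to -0.063. Bcl2l1 was called in 15 of the 18, Bid in 12, Bcl2l11 in 6 and Bcl2 in 4. Pmaip1 and Bcl2a1b were called in 1 each, the replicate block with all libraries. Mcl1, Bax, Bak1 and Bbc3 were called in none. Depth limits Bcl2a1b most, with 78 to 185 counts per library.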
